A study of Mus musculus with 12 samples.

Results

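The 9 genes described here encode enzymes that degrade tryptophan, make nicotinamide adenine dinucleotide (NAD) or clear nicotinamide. All were followed through mouse liver of 4 genotype and diet groups. They were 9 of 12393 genes with a probe set of their own, Tdo2, Afmid, Kmo, Kynu, Haao, Qprt, Nmnat1, Nampt and Nnmt. They were measured by 13 of the 22626 probe sets tested, all annotated with a single symbol. Tdo2, Qprt, Nampt and Nmnat1 had a pair of probe sets each, and the other 5 genes had 1 each. The genes were chosen by function, with the genotype dependence of their quercetin response already known. Quercetin responses and their difference between genotypes are therefore given as descriptions, and no support is drawn from tests of them.

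Liver RNA was hybridised to 12 Affymetrix 430A arrays, and each array carried RNA pooled from 3 male mice. The groups, of 3 arrays each, were POR-null mice given quercetin, POR-null mice on the control diet, wild-type mice given quercetin, and wild-type mice on the control diet. POR-null mice lack a functional gene for cytochrome P450 reductase, the enzyme that passes electrons from NADPH to the microsomal cytochromes P450. The published study describes the deletion as hepatic, and the labels give the strain of all mice as C57BL/6 without the promoter or the cells in which the gene was lost. All mice were 6 to 8 weeks old and had spent 14 days on a soya-free powdered diet before the test. The treated mice then ate that diet with quercetin, a flavonol found in many plants. The dose was 6.2 g per kg of diet, or 7 mg for each mouse, and all mice were killed 24 h later. All values are the deposited log2 expression values, so that a difference of 1 is a doubling. Levels are compared between groups for 1 probe set at a time and never between probe sets.

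As background, the liver breaks down most dietary tryptophan along the kynurenine pathway. Tdo2 opens the indole ring, Afmid removes the formyl group to give kynurenine, and Kmo, a flavoenzyme of the mitochondrial outer membrane, hydroxylates kynurenine with NADPH. Kynu then cleaves off alanine, Haao opens the benzene ring, and the product closes by itself to quinolinate, which Qprt turns into nicotinate mononucleotide. An adenylyltransferase step, for which Nmnat1 is the nuclear enzyme, then adds the adenylyl group. Nampt feeds the same step with nicotinamide mononucleotide in the salvage route, of which it is the rate-limiting enzyme. Nnmt methylates nicotinamide so that it leaves the pool. Tdo2 is a classic glucocorticoid-induced liver gene, and Nampt is a known output of the circadian clock.

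Promoter sequence was found in RefSeq (GRCm38.p6) for 7 of the 9 genes, all but Kynu and Nnmt. In 1 probe set each of Kmo, Nampt and Nmnat1 the 3 arrays of 1 group lay apart from the other 9. The same held for Tdo2 1449337_at and Qprt 1418837_at, whose promoters are not shown. The 250 bases before the start of Kmo, Nampt and Nmnat1 are shown. They lie at chr1:175631943-175632192 on the plus strand for Kmo, chr12:32820085-32820334 on the plus strand for Nampt and chr4:149485211-149485460 on the minus strand for Nmnat1. Sequences run 5′ to 3′ on the gene's strand, and capitals mark matches on either strand to GCGTG, the core of the xenobiotic response element, or to GGGCGG, the GC box.
Kmo: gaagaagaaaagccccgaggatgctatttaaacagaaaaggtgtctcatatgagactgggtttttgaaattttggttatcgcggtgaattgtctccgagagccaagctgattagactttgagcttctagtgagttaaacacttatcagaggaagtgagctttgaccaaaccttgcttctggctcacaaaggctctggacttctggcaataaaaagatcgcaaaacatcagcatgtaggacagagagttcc
Nampt: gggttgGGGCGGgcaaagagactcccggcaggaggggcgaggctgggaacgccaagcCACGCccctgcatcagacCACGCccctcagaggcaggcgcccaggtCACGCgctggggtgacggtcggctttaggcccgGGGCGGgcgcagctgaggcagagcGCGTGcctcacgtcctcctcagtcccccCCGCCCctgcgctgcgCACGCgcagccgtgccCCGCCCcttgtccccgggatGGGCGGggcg
Nmnat1: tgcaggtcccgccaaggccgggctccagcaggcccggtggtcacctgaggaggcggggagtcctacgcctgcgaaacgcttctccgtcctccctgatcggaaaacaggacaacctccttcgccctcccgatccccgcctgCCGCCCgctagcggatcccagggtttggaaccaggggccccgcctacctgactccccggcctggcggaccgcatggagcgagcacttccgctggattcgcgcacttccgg
The Kmo window had 42.8% GC, 5 CpG dinucleotides and no match to any of the 4 motifs searched. The Nampt window had 75.6% GC and 27 CpG dinucleotides, with 5 matches to GCGTG and 5 to GGGCGG. The Nmnat1 window had 69.2% GC, 24 CpG dinucleotides and 1 GGGCGG. Both strands were searched, and no matches overlapped in the windows shown. Among 32851 promoter windows of the same length the median GC content was 52.4%, 28.2% held GCGTG and 32.7% held GGGCGG. The E-box CACGTG, in 6.02% of all windows, was in 0 of the 7 windows of these genes. The TATA box TATAAA, in 12.4% of all windows, had 1 match, in Tdo2.

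Arrays of a group correlated at 0.988 to 0.993 over all probe sets, and no pair of arrays was identical. Wild-type control array 1 stood apart from its group. On the second principal component (12.4% of the variance) it lay at -12.1, among the wild-type quercetin arrays (-16.9 to -8.14), and the other wild-type control arrays lay at 17.7 and 16.2. POR-null control array 3 lay at 0.11 on the first component (33.0% of the variance), against 19.3 and 7.88 for the other arrays of its group. The mean level of the hepatocyte markers was 12.3 to 12.5 on every array, and Por itself was not analysed here.

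Genotype was the comparison with calls in these genes. Differences were tested with limma over all 22626 probe sets, and a probe set is called at a Benjamini-Hochberg adjusted p under 0.05. Over the mean of both diets, 2 of the 13 probe sets were called, both lower in POR-null liver: Nmnat1 1425773_s_at and Tdo2 1419093_at. In that comparison 7.58% of all probe sets were called, 4.88% as higher and 2.7% as lower. In mice on the control diet 2 were called, both lower, Nampt 1417190_at and Nmnat1 1425773_s_at, against 1.16% of all probe sets (0.822% higher and 0.336% lower). On the quercetin diet 1 was called, Kmo, lower in POR-null liver, against 2.33% of all probe sets (1.75% higher and 0.579% lower). Of these 3 comparisons, the mean over both diets is the one that does not share its contrast with the genotype dependence of the quercetin response. That dependence equals the genotype difference on the quercetin diet minus the one on the control diet, so the single-diet calls of Kmo and Nampt restate it in part. Nmnat1 on the control diet was also already known as a result, and that difference enters its mean over both diets.

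Quercetin responses of over 0.5 (log2) in either direction were seen in 3 of the 9 genes. Kmo was higher and Nampt lower with quercetin in wild-type liver, whereas Nmnat1 was higher with quercetin in POR-null liver. By limma 0 of 13 member probe sets were called in either genotype or for the difference between genotypes, and 0% of all 22626 probe sets were called in each of the 3 comparisons. At an unadjusted p under 0.05 the counts over all probe sets were 1581 for POR-null liver, 1942 for wild-type liver and 1397 for the difference. Since the genes were chosen on these responses, nothing is read from the counts that follow. In POR-null liver the quercetin arrays did not overlap the control arrays for 4 of 13 probe sets, all higher with quercetin, against 14.1% of all probe sets (6.62% higher and 7.52% lower). These were Tdo2 1449337_at, Qprt 1418837_at and both of Nmnat1. In wild-type liver the same held for 3 of 13, Kmo higher and both of Nampt lower, against 11.8% of all probe sets (5.67% higher and 6.09% lower). The median response of the 13 was 0.14 in POR-null liver and 0.08 in wild-type liver, against -0.01 and -0.00 over all probe sets.

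**Figure D1:**
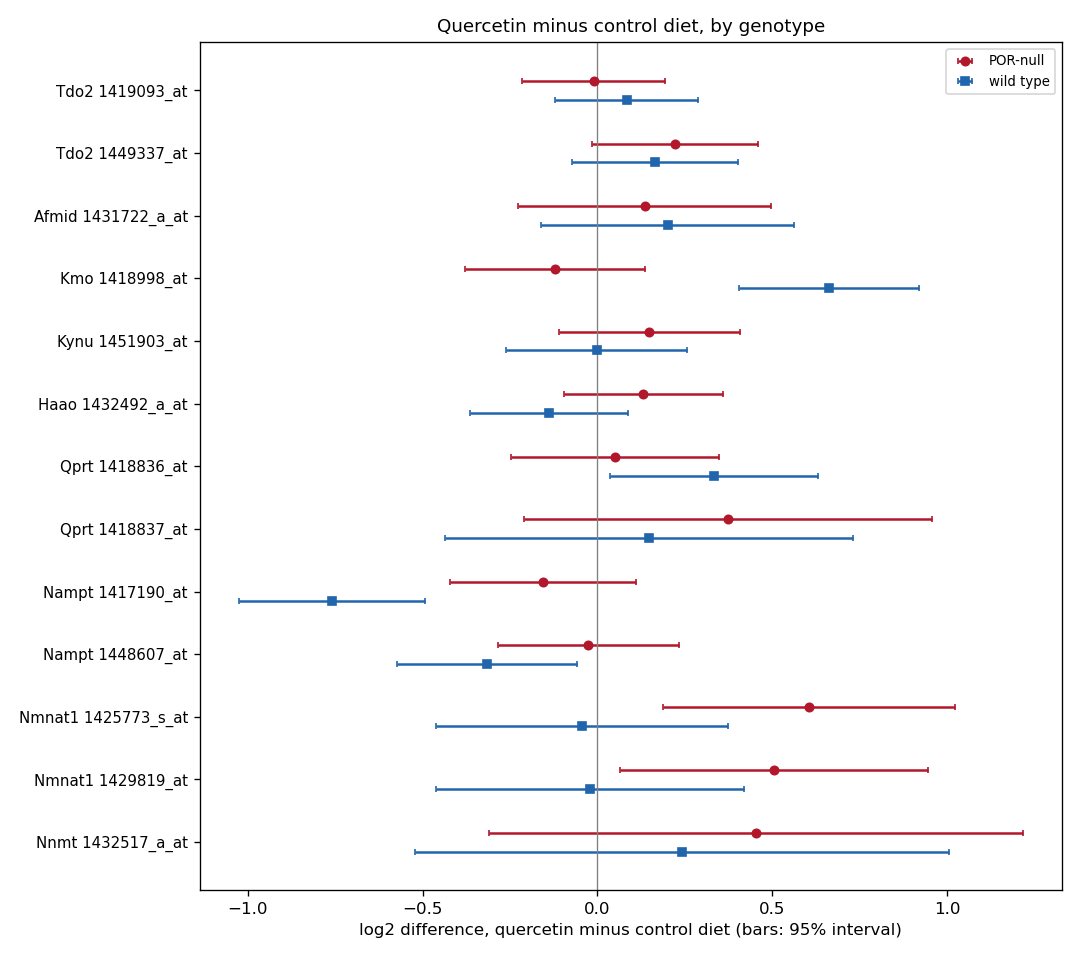
Quercetin minus control diet (log2 difference, x axis) for each probe set, in POR-null liver (red circles) and wild-type liver (blue squares), with 95% intervals from limma. Kmo lay at -0.12 in POR-null liver and 0.66 in wild-type liver, Nampt 1417190_at at -0.16 and -0.76, and Nmnat1 1425773_s_at at 0.61 and -0.04.

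Tdo2, tryptophan 2,3-dioxygenase, which commits tryptophan to the pathway, was lower in POR-null liver. Probe set 1419093_at gave 12.24, 12.15 and 12.48 in POR-null liver with quercetin and 12.23, 12.42 and 12.25 in POR-null liver on the control diet. The same probe set gave 12.69, 12.58 and 12.53 in wild-type liver with quercetin and 12.48, 12.61 and 12.45 in wild-type liver on the control diet. On each diet all POR-null arrays lay below all wild-type arrays, and within a genotype the diets overlapped. The genotype difference over both diets was -0.26 ± 0.07 (SE; 95% interval -0.40 to -0.11; 0.835-fold; limma adjusted p = 0.0313). It was -0.31 ± 0.10 on the quercetin diet (adjusted p = 0.113) and -0.21 ± 0.10 on the control diet (adjusted p = 0.299), neither of them called. In this bulk tissue, fewer cells of a type and less RNA per cell cannot be told apart. Leaving out any of 6 arrays ended the call (adjusted p 0.065 to 0.0812). These were arrays 1 and 2 of each quercetin group, array 1 of the POR-null controls and array 2 of the wild-type controls.

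The second Tdo2 probe set, 1449337_at, was not called. It gave 10.52, 10.46 and 10.68 in POR-null liver with quercetin, against 10.32, 10.34 and 10.34 in POR-null liver on the control diet. In wild-type liver it gave 10.94, 10.41 and 10.69 with quercetin, against 10.57, 10.52 and 10.46 on the control diet. Its genotype difference over both diets had the same sign at -0.16 ± 0.08 (limma adjusted p = 0.255), and on the control diet the groups did not overlap (-0.18 ± 0.11, adjusted p = 0.456). The quercetin response was 0.22 ± 0.11 in POR-null liver, without overlap, and 0.16 ± 0.11 in wild-type liver, with overlap. For 1419093_at the responses were -0.01 ± 0.10 and 0.08 ± 0.10 (SE). The difference in response between genotypes was -0.09 ± 0.14 for 1419093_at and 0.06 ± 0.16 for 1449337_at. The pair correlated at r = 0.61 over the 12 arrays and at 0.51 after subtraction of group means.

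Afmid, the kynurenine formamidase, lay below the median of all values (5.96) in every group. Its probe set averaged 5.31 ± 0.08 in POR-null liver with quercetin and 5.18 ± 0.28 in POR-null liver on the control diet. The wild-type means were 5.49 ± 0.31 with quercetin and 5.29 ± 0.24 on the control diet (SD, n = 3 each), and all 4 groups overlapped. The genotype difference over both diets was -0.14 ± 0.12 (limma adjusted p = 0.511). Its responses to quercetin, 0.14 in POR-null liver and 0.20 in wild-type liver, were within the spread of its arrays.

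Kmo, kynurenine 3-monooxygenase, was the gene whose quercetin response differed most between genotypes. Wild-type liver with quercetin was the single group that stood apart. The arrays read 8.28, 8.43 and 8.40 in POR-null liver with quercetin, against 8.50, 8.69 and 8.29 in POR-null liver on the control diet. They read 8.73, 8.77 and 9.09 in wild-type liver with quercetin, against 8.34, 8.17 and 8.09 in wild-type liver on the control diet. All 3 wild-type quercetin arrays exceeded all 9 others, and the POR-null groups overlapped each other. The response was -0.12 ± 0.12 in POR-null liver (95% interval -0.38 to 0.13) and 0.66 ± 0.12 in wild-type liver (0.41 to 0.92; 1.58-fold). The difference between these responses was -0.79 ± 0.17 (95% interval -1.15 to -0.42). Wild-type control array 1 was the highest of its group, and without it the wild-type response was 0.73 ± 0.13.

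Set between genotypes, Kmo was lower in POR-null liver with quercetin, at 8.37 ± 0.08 against 8.86 ± 0.20 in wild-type liver with quercetin (SD, n = 3 each). That difference was -0.49 ± 0.12 (0.712-fold; limma adjusted p = 0.0476). Without quercetin POR-null liver averaged 8.49 ± 0.20, against 8.20 ± 0.13 in wild-type liver, a difference of 0.30 ± 0.12 that was not called (adjusted p = 0.243). The signs on the 2 diets were opposite, and over both diets the difference was -0.10 ± 0.08 (adjusted p = 0.529). Leaving out any of the 6 quercetin arrays, array 1 of the POR-null controls or array 2 of the wild-type controls ended the quercetin-diet call (adjusted p 0.0508 to 0.191). Macrophages also express Kmo. Over the 14 macrophage markers measured, the mean level relative to all arrays was 0.12 to 0.27 on the POR-null quercetin arrays and 0.00 to 0.29 on the POR-null control arrays. It was -0.24 to 0.45 on the wild-type quercetin arrays and -0.44 to -0.05 on the wild-type control arrays, and the part of these cells in the Kmo values was not tested.

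Kynu and Haao, the following enzymes, differed little. Kynu, kynureninase, lay below the median of all values, with means of 5.32 ± 0.17 in POR-null liver with quercetin and 5.17 ± 0.09 on the control diet. In wild-type liver its means were 5.39 ± 0.19 with quercetin and 5.39 ± 0.13 on the control diet (SD, n = 3 each). On the control diet every POR-null array (5.15, 5.27 and 5.11) lay below every wild-type array (5.35, 5.29 and 5.55), but the difference of -0.22 ± 0.12 was not called (limma adjusted p = 0.408). Haao, 3-hydroxyanthranilate dioxygenase, averaged 9.49 ± 0.14 in POR-null liver with quercetin and 9.36 ± 0.09 on the control diet. In wild-type liver it averaged 9.34 ± 0.14 with quercetin and 9.48 ± 0.13 on the control diet, and all groups overlapped. The Haao response was 0.13 ± 0.11 in POR-null liver and -0.14 ± 0.11 in wild-type liver, a difference of 0.27 ± 0.15. Its genotype difference over both diets was 0.02 ± 0.07 (95% interval -0.14 to 0.18), the closest to 0 of the 13 probe sets.

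Qprt, quinolinate phosphoribosyltransferase, had positive genotype differences on both diets in both of its probe sets, though none was called. Probe set 1418836_at gave 9.37, 9.52 and 9.20 in POR-null liver with quercetin and 9.51, 9.11 and 9.34 in POR-null liver on the control diet. In wild-type liver it gave 9.00, 9.40 and 9.40 with quercetin and 9.11, 8.73 and 8.96 on the control diet. The wild-type control arrays were the low ones, and they overlapped the wild-type quercetin and POR-null control arrays but not the POR-null quercetin arrays. The genotype difference was 0.24 ± 0.10 over both diets (limma adjusted p = 0.151), 0.10 ± 0.14 with quercetin (0.763) and 0.39 ± 0.14 on the control diet (0.192).

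Probe set 1418837_at of Qprt turned on 1 array. It gave 7.75, 8.11 and 7.82 in POR-null liver with quercetin and 7.53, 7.58 and 7.44 in POR-null liver on the control diet. In wild-type liver it gave 7.62, 7.36 and 7.07 with quercetin and 6.28, 7.65 and 7.67 on the control diet. Wild-type control array 1 was more than 1 log2 unit below the other arrays of its group. The POR-null quercetin arrays lay above all arrays of the other 3 groups. The genotype difference was 0.54 ± 0.27 with quercetin (limma adjusted p = 0.33) and 0.32 ± 0.27 on the control diet (0.621). Without wild-type control array 1 the control-diet difference was -0.14, the wild-type quercetin response was -0.31 in place of 0.15, and the quercetin-diet difference was called (adjusted p = 0.0422). When Qprt was represented by the mean of both probe sets, its genotype difference over both diets was 0.34 ± 0.10 and was called (adjusted p = 0.0495). The pair correlated at r = 0.08 over the 12 arrays, so the 2 probe sets disagreed.

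**Figure D2:**
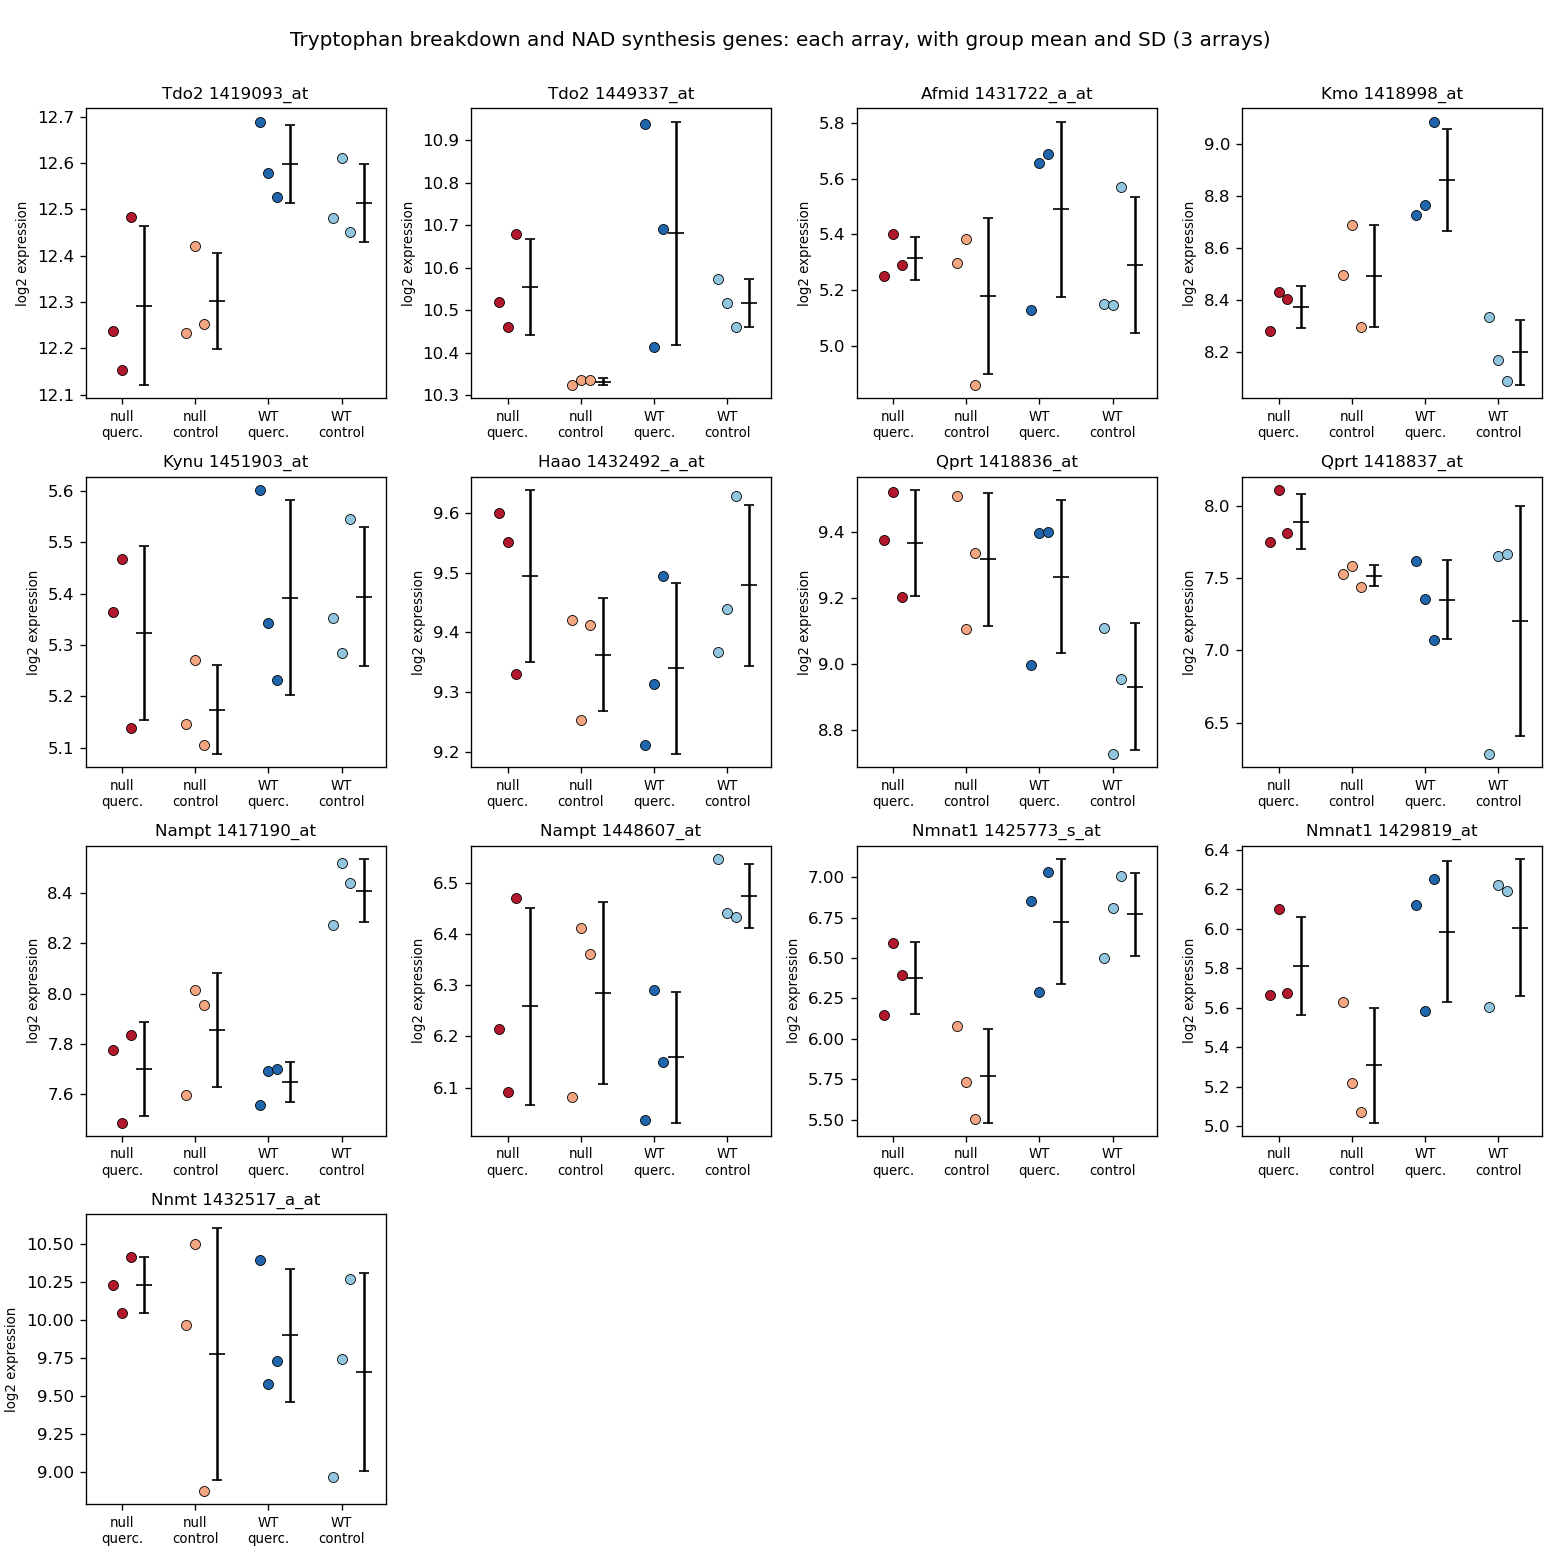
log2 expression (y axis) on each array, with the group mean and SD, for the 13 probe sets in POR-null quercetin, POR-null control, wild-type quercetin and wild-type control liver (3 arrays each). Kmo stands apart in wild-type quercetin liver, Nampt 1417190_at in wild-type control liver and Nmnat1 1425773_s_at in POR-null control liver.

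Nampt, which makes nicotinamide mononucleotide from nicotinamide, was highest in wild-type liver on the control diet, and the other 3 groups overlapped one another. Probe set 1417190_at gave 7.78, 7.49 and 7.84 in POR-null liver with quercetin, against 7.60, 8.02 and 7.96 in POR-null liver on the control diet. It gave 7.56, 7.69 and 7.70 in wild-type liver with quercetin, against 8.27, 8.52 and 8.44 in wild-type liver on the control diet. All 3 wild-type control arrays lay above the other 9. The response was -0.16 ± 0.12 in POR-null liver (95% interval -0.42 to 0.11) and -0.76 ± 0.12 in wild-type liver (-1.03 to -0.49; 0.591-fold), with a difference between them of 0.60 ± 0.18. Probe set 1448607_at had the same order of groups with smaller differences. Its means were 6.26 ± 0.19 in POR-null liver with quercetin and 6.29 ± 0.18 on the control diet, and 6.16 ± 0.13 in wild-type liver with quercetin and 6.47 ± 0.06 on the control diet (SD, n = 3 each). Its response was -0.03 ± 0.12 in POR-null liver and -0.32 ± 0.12 in wild-type liver, again without overlap in wild-type liver.

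On the control diet Nampt 1417190_at was lower in POR-null liver, at 7.86 ± 0.23 against 8.41 ± 0.13 in wild-type liver (SD, n = 3 each). The difference was -0.55 ± 0.12 (0.681-fold; limma adjusted p = 0.048), and it was -0.19 ± 0.12 for 1448607_at (adjusted p = 0.483), which was not called. With quercetin the genotypes differed by 0.05 ± 0.12 and 0.10 ± 0.12 (adjusted p = 0.878 and 0.725), and over both diets by -0.25 ± 0.09 and -0.04 ± 0.09 (adjusted p = 0.0976 and 0.802). The control-diet call was kept in 3 of 12 fits that left out an array, those without array 1 of the wild-type controls, array 3 of the POR-null controls or array 2 of the POR-null quercetin group, and lost in the others (adjusted p 0.0593 to 0.231). It was also lost when the fit used only the control-diet arrays (adjusted p = 0.152) or 1 value per gene (0.129), and narrowly without the intensity trend (0.0527) or with array weights (0.0508).

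The clock genes were set beside Nampt because it is a clock output. Over the 16 of 19 listed clock symbols measured, the mean level relative to all arrays was -0.12 to -0.04 on the POR-null quercetin arrays and -0.20 to 0.00 on the POR-null control arrays. It was -0.14 to 0.13 on the wild-type quercetin arrays and 0.04 to 0.30 on the wild-type control arrays. Wild-type control arrays 2 and 3 were the highest for this list, but array 1, at 0.04, lay below wild-type quercetin array 3. In mice on the control diet 0 of 16 clock genes had a positive genotype difference, with a median of -0.34 against -0.02 over all genes, and none was called there by limma (1.24% of all genes were). Over both diets 1 of 16 was called, Per1, a negative regulator of the clock, at -0.37 ± 0.09 (adjusted p = 0.0205), against 7.94% of all genes. The Per1 call ended without array 1 of the POR-null controls, array 2 of the POR-null quercetin group or array 1 of the wild-type quercetin group (adjusted p 0.0535 to 0.0588). The part of the clock, or of the hour at which livers were taken, in the Nampt values was not tested.

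Nmnat1, the nuclear adenylyltransferase, was lowest in POR-null liver on the control diet. Probe set 1425773_s_at gave 6.15, 6.59 and 6.39 in POR-null liver with quercetin, against 6.08, 5.73 and 5.51 in POR-null liver on the control diet. It gave 6.85, 6.29 and 7.03 in wild-type liver with quercetin, against 6.50, 6.81 and 7.00 in wild-type liver on the control diet. All POR-null control arrays lay below the other 9, and the wild-type groups overlapped. Over both diets the genotype difference was -0.67 ± 0.14 (95% interval -0.97 to -0.38; 0.628-fold; limma adjusted p = 0.009). This call held in all 12 fits that left out an array (adjusted p 0.00443 to 0.0284) and under all 7 other settings tried (0.00857 to 0.0322). The control-diet difference, already known as a result, is part of the mean over both diets, so the call restates it in part. On the control diet the difference was -0.996 ± 0.20 (0.501-fold; adjusted p = 0.028), and with quercetin it was -0.35 ± 0.20 and not called (adjusted p = 0.392). The control-diet call ended without array 2 or 3 of the wild-type controls or array 2 of the POR-null controls (adjusted p 0.0935 to 0.122), with only the control-diet arrays fitted (0.0727) and with 1 value per gene (0.0712).

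The response of Nmnat1 1425773_s_at to quercetin was 0.61 ± 0.20 in POR-null liver (95% interval 0.19 to 1.02) and -0.04 ± 0.20 in wild-type liver. The difference between the responses was 0.65 ± 0.28. The second probe set, 1429819_at, had group means of 5.31 to 6.01, near or below the median of all values, and followed the first closely. It gave 5.66, 6.10 and 5.68 in POR-null liver with quercetin, against 5.63, 5.22 and 5.07 in POR-null liver on the control diet. In wild-type liver it gave 6.12, 5.58 and 6.26 with quercetin, against 5.61, 6.22 and 6.19 on the control diet. Here wild-type control array 1 was the low array of its group, and it lay among the POR-null arrays. The response was 0.51 ± 0.21 in POR-null liver and -0.02 ± 0.21 in wild-type liver. Its genotype difference over both diets was -0.44 ± 0.15 and was not called (limma adjusted p = 0.0859). It was called without wild-type control array 1 (adjusted p = 0.0275) or wild-type quercetin array 2 (0.0428), and on the control diet, where it was -0.70 ± 0.21 (adjusted p = 0.119), also without wild-type control array 1 (0.0313). The s_at suffix of the first probe set marks a set whose probes can match more than one transcript.

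**Figure D3:**
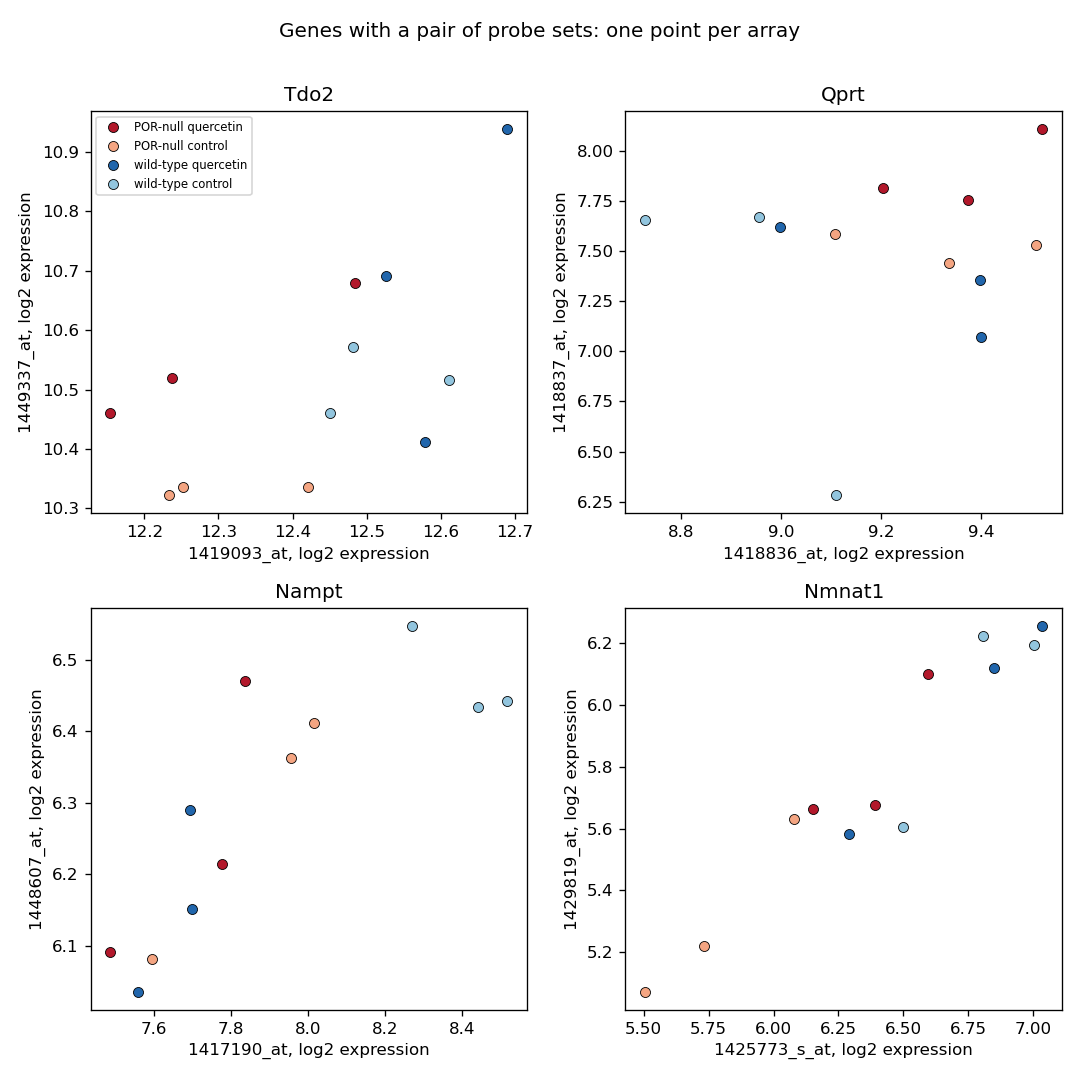
log2 expression of the 2 probe sets of Tdo2, Qprt, Nampt and Nmnat1 plotted against each other (x and y axes), 1 point per array, coloured by group. The Nmnat1 pair lies along a line (r = 0.96 over 12 arrays), the Nampt pair less so (0.82), the Tdo2 pair less again (0.61), and the Qprt pair does not (0.08), with wild-type control array 1 lowest at 6.28 on the y axis.

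Nnmt, nicotinamide N-methyltransferase, varied most between arrays of a group. It gave 10.23, 10.05 and 10.42 in POR-null liver with quercetin, against 9.96, 10.50 and 8.87 in POR-null liver on the control diet. In wild-type liver it gave 10.40, 9.57 and 9.73 with quercetin, against 8.97, 9.74 and 10.27 on the control diet. Every group overlapped every other, and the SD over arrays pooled across groups was 0.58. The genotype difference over both diets was 0.23 ± 0.25 (95% interval -0.31 to 0.77; limma adjusted p = 0.64), an interval wide enough to hold most differences seen in the other genes. Its responses were 0.45 ± 0.36 in POR-null liver and 0.24 ± 0.36 in wild-type liver. Single arrays set both values: the POR-null response was 0.00 without array 3 of the POR-null controls and 0.81 without array 2. The wild-type response was -0.10 without array 1 of the wild-type controls and 0.55 without array 3.

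**Figure D4:**
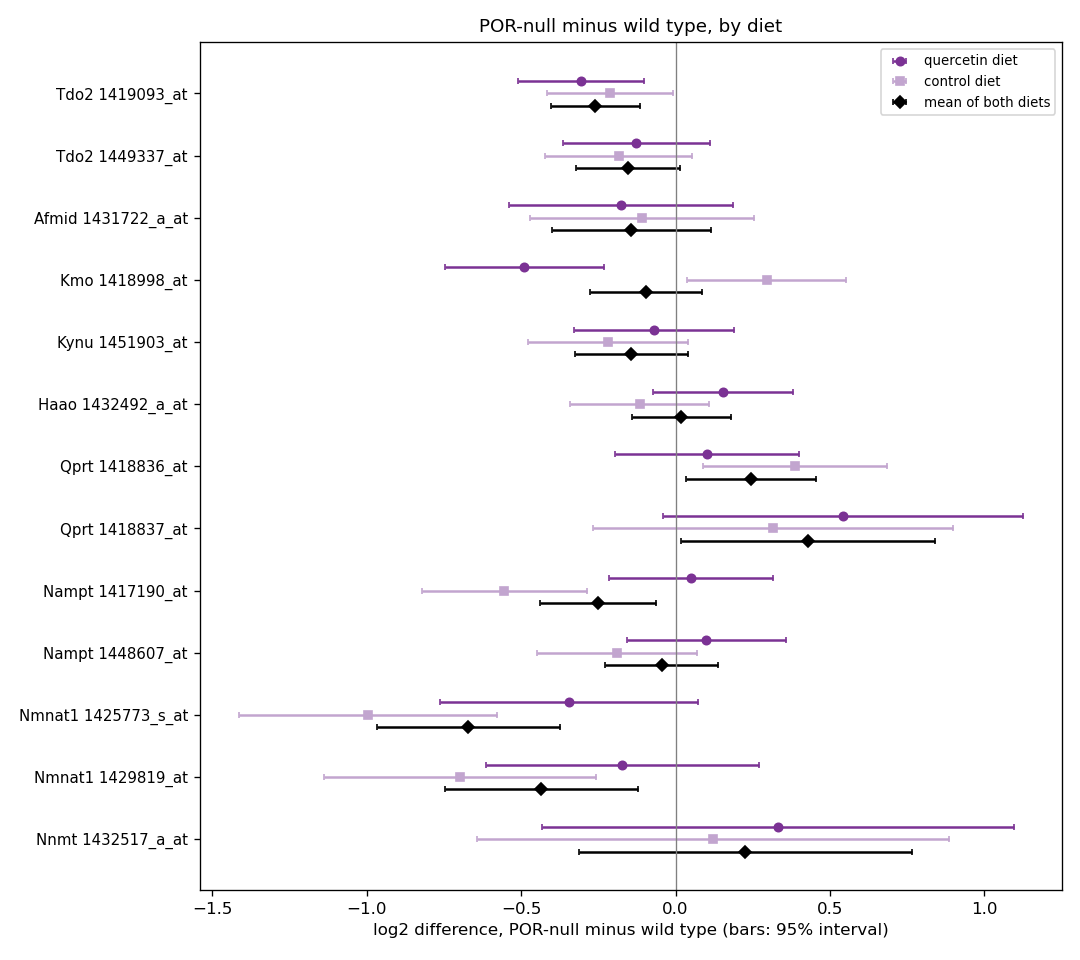
POR-null minus wild type (log2 difference, x axis) for each probe set on the quercetin diet (dark circles), on the control diet (light squares) and over both diets (black diamonds), with 95% intervals from limma. Nmnat1 1425773_s_at lay at -0.35, -0.996 and -0.67, Tdo2 1419093_at at -0.31, -0.21 and -0.26, and Kmo at -0.49, 0.30 and -0.10.

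Seen together by genotype, 4 of 13 probe sets had a positive difference over both diets, against 43.6% of all probe sets, and the median was -0.14 against -0.02. On the control diet 6 of 13 probe sets had all POR-null arrays below all wild-type arrays and 0 had them above, against 9.24% and 8.04% of all probe sets (17.3% in either direction). These 6 were both of Tdo2, both of Nampt, Kynu and Nmnat1 1425773_s_at, so they stand for 4 genes. With quercetin 2 lay wholly below, Tdo2 1419093_at and Kmo, and 1 wholly above, Qprt 1418837_at, against 13% and 11.9% of all probe sets (25% in either direction). Single-diet differences enter the genotype dependence of the quercetin response, which was known when the genes were chosen. Nothing is therefore read from these single-diet counts. By point estimate over both diets, Tdo2, Afmid, Kmo and Kynu were all lower (-0.26 to -0.10), Haao was at 0.02, and both Qprt probe sets were higher (0.24 and 0.43). Of these only Tdo2 1419093_at was called, Kmo had opposite signs on the single diets, and Qprt 1418837_at turned on 1 array.

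The genes whose levels followed Kmo, Nampt and Nmnat1 most closely were taken from 7393 genes above the median level, by Pearson r over the 12 arrays. The arrays share the 4 groups, so that r after subtraction of group means is given second. For Kmo they were Hoxa3 (0.91 and 0.83), Ankrd24 (0.89 and 0.53) and Slc25a13, the mitochondrial aspartate-glutamate carrier (0.88 and 0.93). For Nampt 1417190_at they were Pagr1a (0.91 and 0.68), Sult2b1, a cholesterol sulfotransferase (0.91 and 0.70), and Selenot (0.90 and 0.60). For Nmnat1 1425773_s_at they were Psmd14, a proteasome deubiquitinase (0.85 and 0.87), Cdc7 (0.85 and 0.73) and Skiv2l (0.84 and 0.48). Slc25a13 and Psmd14 were as close within groups as over all arrays. The partners were picked as the highest of 7393 genes over 12 arrays, and the second r used the same arrays. Links between these genes were not tested.

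Of the other enzymes of tryptophan breakdown 9 of 12 were measured, and over both diets 1 was called higher and 1 lower in POR-null liver, against 7.94% of all genes. Ido2, another tryptophan dioxygenase, was higher by 0.30 ± 0.08 (limma adjusted p = 0.0274). Ido2 averaged 6.39 ± 0.06 in POR-null liver with quercetin and 5.97 ± 0.11 on the control diet, and 6.07 ± 0.18 in wild-type liver with quercetin and 5.70 ± 0.09 on the control diet (SD, n = 3 each). Its quercetin response was 0.43 ± 0.11 in POR-null liver and 0.38 ± 0.11 in wild-type liver, without overlap in either genotype, and neither was called (adjusted p = 0.607 and 0.39). Aadat, which transaminates kynurenine to kynurenic acid, was lower by point estimate at -0.32 ± 0.09 (adjusted p = 0.045), a call kept in 1 of 12 fits that left out an array, the one without array 2 of the wild-type controls. In the serotonin and tryptamine branch 5 of 7 were measured and 1 was called, Ddc, the aromatic amino acid decarboxylase, at 0.58 ± 0.16 (adjusted p = 0.0446; kept in 3 of 12 fits, those without array 1 of the wild-type controls or array 2 or 3 of the POR-null controls). It was not called with quantile normalization, no trend, a robust variance prior or 1 value per gene (adjusted p 0.05 to 0.0874), and Aadat was not called without the trend (0.051). No member of either list was called on a single diet, against 2.49% of all genes with quercetin and 1.24% on the control diet. Leaving out array 1 or 3 of the POR-null quercetin group, array 1 of the POR-null controls or of the wild-type quercetin group, or array 2 of the wild-type controls ended the Ido2 call (adjusted p 0.0514 to 0.0717).

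Other genes of NAD synthesis and salvage also differed by genotype. Of these 7 of 13 were measured, and over both diets 2 were called higher and 1 lower, against 7.94% of all genes. Nadk, the kinase that turns NAD into NADP, was higher by 0.47 ± 0.08 (limma adjusted p = 0.00243), a call kept in all 12 fits that left out an array. Nadk averaged 10.02 ± 0.06 in POR-null liver with quercetin and 9.92 ± 0.15 on the control diet, against 9.44 ± 0.08 and 9.56 ± 0.21 in wild-type liver on the same diets (SD, n = 3 each). It was also called on the quercetin diet alone (0.58 ± 0.11, adjusted p = 0.0133), where 2.49% of all genes were called. Pnp, which releases nicotinamide from its riboside, was higher by 0.26 ± 0.06 (adjusted p = 0.0231), a call lost without array 1 or 3 of the POR-null quercetin group, array 1 or 2 of the POR-null controls, or array 2 of the wild-type quercetin group (0.0554 to 0.0635). With quantile normalization Pnp was at 0.16 ± 0.06 and was not called (adjusted p = 0.126). Aspdh, annotated as an aspartate dehydrogenase, was lower at -0.35 ± 0.08 (adjusted p = 0.0198; lost without array 1 of the POR-null controls, at 0.0563, or of the wild-type quercetin group, at 0.0515). The quercetin-diet call of Nadk ended without array 1 or 2 of either quercetin group (adjusted p 0.0551 to 0.0708).

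Among the 6 genes of nicotinamide clearance, all measured, 1 was called higher and 1 lower over both diets, against 7.94% of all genes. Both calls were kept in all 12 fits that left out an array. Aox3, an aldehyde oxidase of mouse liver, was lower at -0.61 ± 0.14 (limma adjusted p = 0.0144), with means of 9.02 ± 0.27 in POR-null liver and 9.87 ± 0.11 in wild-type liver on the quercetin diet. On that diet its difference of -0.85 ± 0.19 was also called (adjusted p = 0.0338), but not after leaving out array 1 or 2 of the POR-null quercetin group or any array of the wild-type quercetin group (adjusted p 0.0785 to 0.16), nor with a robust variance prior (0.053). Mat1a, which makes the S-adenosylmethionine that Nnmt uses, was higher by 0.36 ± 0.07 (adjusted p = 0.00827). Of the NAD-consuming sirtuins, PARPs and glycohydrolases 11 of 15 were measured and 0 were called by limma over both diets, against the same 7.94%. The lowest adjusted p values were those of Tiparp (-0.34 ± 0.10, 0.0554) and Sirt1 (-0.33 ± 0.10, 0.0654). Of the tryptophan transporters 4 of 6 were measured and 0 were called, again against 7.94%, with Slc3a2, the heavy chain of the large neutral amino acid carriers, at -0.30 ± 0.09 (adjusted p = 0.0658).

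Glucocorticoid-responsive liver genes were listed because Tdo2 is one of them. Of 10 measured, 1 was called higher and 3 lower over both diets, against 7.94% of all genes, and their median was -0.27 against -0.02 over all genes. Tsc22d3, a glucocorticoid-induced leucine zipper protein, was lower at -0.63 ± 0.12 (limma adjusted p = 0.00532) and at -0.99 ± 0.17 on the quercetin diet alone (0.00834), and both calls were kept in all 12 fits that left out an array. It averaged 8.34 ± 0.06 in POR-null liver with quercetin and 8.73 ± 0.31 on the control diet, against 9.33 ± 0.21 and 9.00 ± 0.33 in wild-type liver on the same diets (SD, n = 3 each). Per1 was lower as above, and Pck1, which opens gluconeogenesis, was lower at -0.36 ± 0.10 (adjusted p = 0.0343), a call kept in 4 of 12 fits, those without array 1 or 3 of the wild-type controls, array 2 of the POR-null controls or array 3 of the POR-null quercetin group. With 1 value per gene Pck1 was at -0.20 ± 0.07 and was not called (adjusted p = 0.104). G6pc, which releases free glucose, was higher by 0.50 ± 0.13 (adjusted p = 0.0265), so the list did not move one way. Leaving out array 2 or 3 of the POR-null quercetin group, array 1 or 2 of the POR-null controls, or array 1 of the wild-type quercetin group ended the G6pc call (adjusted p 0.0548 to 0.0684), as did quantile normalization (0.0701). No member of these lists was called for quercetin in either genotype, where 0% of all genes were called.

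**Figure D5:**
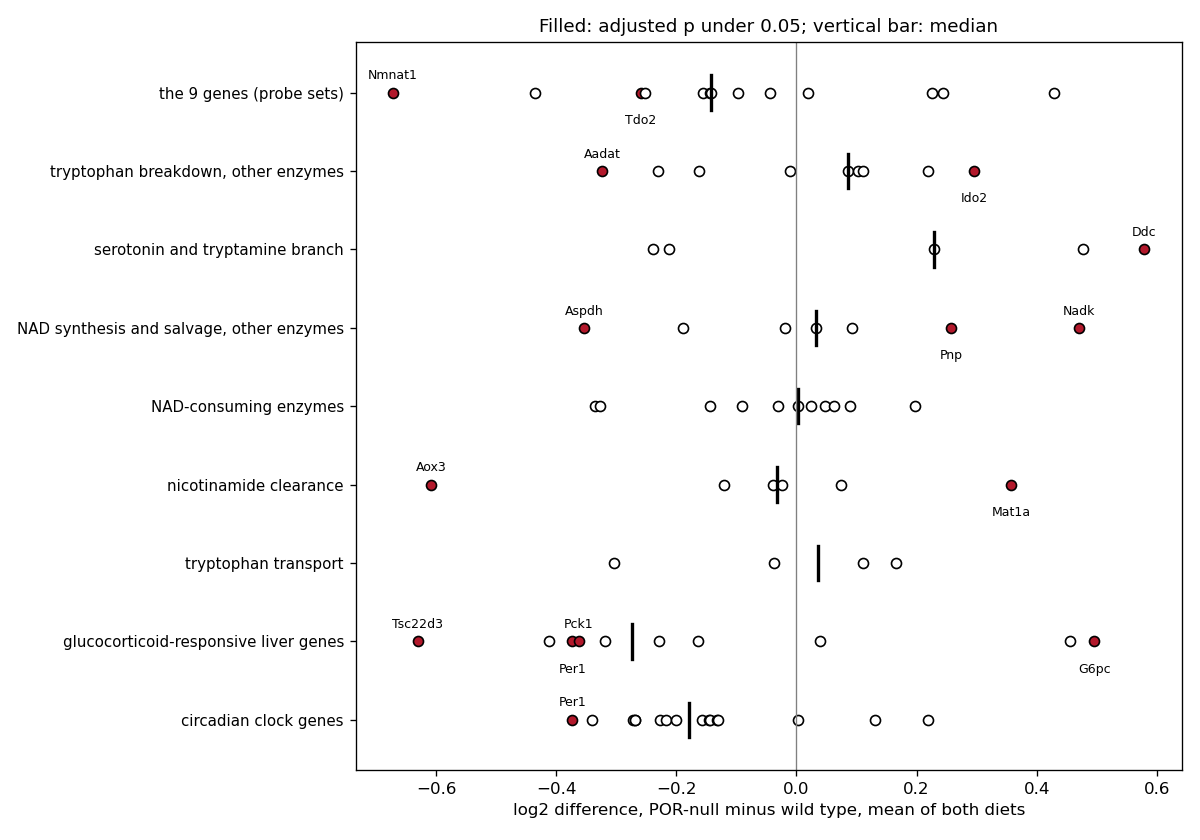
POR-null minus wild type over both diets (log2 difference, x axis) for the 13 probe sets and for the measured members of each other pathway list (cell markers are not drawn), 1 point per gene, filled where the limma adjusted p is under 0.05, with a vertical bar at each median. Nmnat1 (-0.67), Aox3 (-0.61) and Tsc22d3 (-0.63) lie lowest, and Ddc (0.58), G6pc (0.50) and Nadk (0.47) lie highest among the filled points.

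Markers of other cells were measured on the same arrays. Of the 14 macrophage markers 4 were called higher in POR-null liver over both diets, Mpeg1, Lyz2, Cd5l and C1qa (0.39 to 0.95 by log2 difference), against 7.94% of all genes. On each diet alone 1 was called, Mpeg1, against 2.49% of all genes with quercetin and 1.24% on the control diet. Over both diets 10 of the 14 were above 0, and those below included Marco (-0.43) and Cd163 (-0.31), neither called. Of 8 lymphocyte markers 1 was called lower over both diets, Nkg7 (-0.36), against the same 7.94%. None of the 6 hepatocyte, 7 neutrophil, 6 endothelial and 8 stellate markers was called by limma in any of the 6 comparisons. The same held for the 4 cholangiocyte, 7 exocrine pancreas, 3 adipocyte and 5 skeletal muscle markers. Of all genes, 0% were called for quercetin in either genotype or for the difference in response. The share was 7.94% for genotype over both diets, 2.49% with quercetin and 1.24% on the control diet. The pancreas markers varied most between arrays, with mean levels relative to all arrays of -0.61 to 2.25 in POR-null liver with quercetin and -0.93 to 0.78 on the control diet. In wild-type liver these means were -1.21 to 0.71 with quercetin and -0.84 to 1.09 on the control diet. Whether any of these cells contributed to the values of the 9 genes was not tested.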

How the data were processed

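The authors deposited 1 table of log2 expression values for the 12 arrays, a scale read from the value range of 2.57 to 14.2. Per the submitters' processing notes, MAS5 and RMA were used; which of them made these log2 values is not given in the sources used here. The medians of the arrays spanned 5.93 to 5.99, and no further normalization or pseudocount was applied. Groups and array numbers came from the sample titles.

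Of 22690 probe sets, 64 AFFX controls were left out and 22626 were tested. In the platform annotation 20380 carried 1 symbol, 691 several and 1555 none. Symbols of 20351 were matched to RefSeq (GRCm38.p6), which changed 0, and 29 kept their name. For the other lists, the probe set with the highest mean stood for its gene.

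A limma model (version 3.58.1, R 4.3.3) of group means was fitted to the 12 arrays together, with variances moderated along an intensity trend, two-sided tests and Benjamini-Hochberg adjustment over all 22626 probe sets in each of 6 contrasts. Between 2 groups, the median half-width of the 95% interval was 0.24, and precision is limited by how few arrays there are. Since each array held a pool of 3 mice, p-values reflect the spread of pools and not of mice. Values are mean ± SD over 3 arrays for levels and estimate ± SE for differences.

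The 9 genes, the other gene lists and the cell markers were chosen with earlier results of these data known. All probe sets of the 9 genes are described. From each other list the text names members called in a genotype comparison (at most 4 per list and comparison) and members among the 2 with the lowest p. Likeness to Kmo, Nampt and Nmnat1 was ranked by Pearson r, and the 3 highest are named. Promoters (RefSeq) were searched on both strands in Python 3.11.15. The alternatives left out the dimmest 40% of probe sets, used quantile normalization, no trend, robust moderation, array weights, a replicate block, the groups compared alone, 1 value per gene, or 11 of 12 arrays. No reference genome was used.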

Additional observations from a re-analysis of the deposited data

Results flagged for a closer look

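Kmo is the result to look at again, because its quercetin arrays lay on opposite sides of the control means in the 2 genotypes. Every POR-null array with quercetin lay below the POR-null control mean, and every wild-type array with quercetin lay above the wild-type control mean. The response was -0.12 in POR-null liver and 0.66 in wild-type liver, a difference of -0.79 (log2). The POR-null groups overlapped, and the 95% interval of that response held 0 (-0.38 to 0.13). Likewise every POR-null array lay below the wild-type mean with quercetin (-0.49), and every POR-null array lay above the wild-type mean on the control diet (0.30), which is the same difference of -0.79. Since the genes were chosen on this response, the difference was not tested as evidence here. It rests on 3 arrays per group, and without any 1 array it stayed between -0.88 and -0.67.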

How the results depend on the processing

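Calls were counted under each setting, among the members and over all that was fitted. This was 22626 probe sets, fewer of them without the dimmest 40%, and genes with 1 value per gene. Where a member count below stands without the count over all for the same comparison, nothing is read from it. With each array left out in turn, member calls ranged from 1 to 3 for genotype over both diets, from 0 to 2 on the quercetin diet, from 0 to 3 on the control diet and from 0 to 2 for quercetin in wild-type liver. Calls over all probe sets ranged from 991 to 2128, 127 to 680, 35 to 756 and 0 to 151 in these comparisons. For quercetin in POR-null liver they ranged from 0 to 4 and for the difference in response from 0 to 1, with 0 member calls in both. The 2 member calls for quercetin in wild-type liver, Kmo and Nampt, came without wild-type control array 1. With the replicate number as a block, 2 probe sets were called for quercetin in wild-type liver, and member calls were 1 over both diets (Tdo2 lost, adjusted p = 0.0517) and 0 on the quercetin diet (Kmo lost, 0.0695). Whether the array numbers mark pairs could not be told. The 18 correlations between same-numbered arrays ran from -0.18 to 0.24, with 5 over 0.1, and 6 of 12 arrays correlated best with their own number. Without the trend, 1 probe set was called for quercetin in wild-type liver, member calls were 0 on the quercetin diet (Kmo lost, 0.0529) and 1 on the control diet. Without the dimmest 40%, 1 was called for quercetin in wild-type liver. With array weights, member calls were 1 on the control diet. In a different comparison, that on the quercetin diet, 1052 probe sets were called with array weights. With the groups compared alone, 950 were called on the quercetin diet, and 30 with 0 members on the control diet. With 1 value per gene, 1061 genes were called over both diets (Tdo2 lost, 0.0772), and 110 genes with 0 members on the control diet. No called value changed sign under these settings. Of 1522 values of the 13 probe sets over all settings, 54 that were not called took the opposite sign. The cause of these shifts was not tested. The probe sets of Afmid and Kynu lie below the median of all values, and signal over background was not analysed here.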
